A study of Mus musculus with 2 samples.

Results

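The glucocorticoid receptor gene *Nr3c1* and 9 genes that the receptor is known to induce (*Fkbp5*, *Tsc22d3*, *Zbtb16*, *Klf9*, *Mt1*, *Mt2*, *Errfi1*, *Sesn1* and *Ddit4*) were followed across the nuclei of mouse tibialis anterior (TA) muscle. The genes were chosen by symbol. All 10 were found among the 32285 genes of the count tables, and each had at least 200 unique molecular identifiers (UMIs, the tags that mark single RNA molecules) in myonuclei, the nuclei of muscle fibres. Single-nucleus RNA sequencing (snRNA-seq) was performed on 1 library per genotype, from the TA muscles of both legs of 2 male mice aged 6 weeks. M-*Bcl6* KO mice carried Myf6-Cre, which is driven from a promoter specific to skeletal muscle, and *Bcl6* fl/fl alleles with loxP sites around exons 7 to 9. M-*Bcl6* WT mice were littermates with Myf6-Cre and *Bcl6* wt/wt, so both groups carried the Cre transgene. The comparison asks how the transcription repressor BCL6, removed in muscle fibres, affects the RNA of muscle nuclei.

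The glucocorticoid receptor is held in the cytoplasm by chaperones until a steroid binds it, and it then enters the nucleus and binds DNA. In skeletal muscle it is known for switching on genes that restrain growth signalling and favour protein breakdown. *Fkbp5* encodes a co-chaperone that lowers the receptor's affinity for hormone and is itself induced by it, a negative feedback loop. *Tsc22d3* encodes GILZ, an anti-inflammatory leucine zipper protein. *Zbtb16* (PLZF) and *Klf9* encode transcription factors. *Ddit4* (REDD1) and *Sesn1* (sestrin 1) encode inhibitors of mTORC1, the kinase complex that drives protein synthesis. *Mt1* and *Mt2* encode metallothioneins, small proteins that bind zinc and copper, and *Errfi1* (MIG6) encodes an inhibitor of the epidermal growth factor receptor.

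In the mouse genome (mm10, GENCODE M21 gene spans) *Fkbp5* lies at chr17:28399094-28517527, *Tsc22d3* at chrX:140539528-140600659, *Zbtb16* at chr9:48654297-48836222 and *Ddit4* at chr10:59949669-59951834, all on the minus strand. *Klf9* lies at chr19:23141226-23168134, *Errfi1* at chr4:150853919-150868892 and *Sesn1* at chr10:41809935-41908424, on the plus strand. *Mt2* (chr8:94172664-94173568) and *Mt1* (chr8:94179082-94180327) are neighbours on the plus strand with 5513 bases between them, and their coding sequences of 183 bases each are 79.2% identical. *Fkbp5*, *Mt2* and *Errfi1* each overlap an antisense gene that is also in the count tables, and *Fkbp5* a sense intronic gene as well. Levels are given as CPM, a gene's UMIs out of 1000000 UMIs of the same nuclei. The spans run from 0.905 kb for *Mt2* to 182 kb for *Zbtb16*. Per kb of gene span, the level in myonuclei of the WT-labelled library ran from 24.9 CPM for *Mt1* to 2.12 for *Nr3c1*.

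The metallothionein promoters are shown because their genes had the 2 highest ratios between the libraries among the members, and both are known to respond to metals as well as to glucocorticoids. The bases before the earlier of the RefSeq and GENCODE starts are given 5′ to 3′ on the plus strand (RefSeq sequence, GRCm38.p6). Capitals mark the core of the metal response element, searched on both strands as TGCACNC or TGCGCNC, which do not overlap here.
Mt1, chr8:94178839-94179081: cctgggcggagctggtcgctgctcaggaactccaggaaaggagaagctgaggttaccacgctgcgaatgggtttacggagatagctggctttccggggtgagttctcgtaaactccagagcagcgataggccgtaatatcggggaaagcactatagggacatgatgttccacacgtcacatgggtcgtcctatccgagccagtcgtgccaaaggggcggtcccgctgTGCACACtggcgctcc
Mt2, chr8:94172368-94172617: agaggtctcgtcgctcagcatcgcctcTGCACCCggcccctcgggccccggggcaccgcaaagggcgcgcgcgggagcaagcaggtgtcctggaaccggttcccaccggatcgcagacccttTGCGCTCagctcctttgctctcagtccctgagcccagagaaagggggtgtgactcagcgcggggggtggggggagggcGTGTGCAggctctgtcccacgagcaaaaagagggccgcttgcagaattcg
The full windows of 250 bases before and 50 after the RefSeq start held 3 such cores for *Mt1* and 4 for *Mt2*, of which those past that point are not printed. At least 3 were found in 1.97% of 32851 promoter windows of this length, and at least 1 in 25.7%. The window of *Ddit4* held 1, and those of the other members in the table held 0. Promoters were found for 8 of the 10 members. AGAACA, the letters of a single glucocorticoid receptor recognition element, occurred in 1 of the 3 *Tsc22d3* windows and in no other window of a member, against 19.0% of all windows. TTCCNAGAA, the letters of a BCL6 recognition site, occurred in 0 of the members' windows and in 2.24% of all.

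The files held 3798 barcodes and 11974138 UMIs in the WT-labelled library and 4096 barcodes and 12026013 UMIs in the library labelled KO, of which 3674 and 3944 nuclei were kept (median 2550.5 and 2473 UMIs). The libraries shared 6 barcodes. Myonuclei made up 2408 nuclei (65.5%) of the WT-labelled library and 3087 (78.3%) of that labelled KO. *Bcl6* itself had 167 CPM in myonuclei of the WT-labelled library and 502, the higher value, in that labelled KO. Counts per gene do not show whether the *Bcl6* UMIs come from the deleted exons or from other parts of the gene. This total is therefore no check of the deletion or of the labels, and the libraries are named by their labels throughout. The 10 myonuclear markers (*Ttn*, *Ckm* and others) held 97617 and 113585 CPM in myonuclei and between 2328 and 11673 in the 6 other classes described here. With 1 library per genotype no test between genotypes was possible. Intervals (95%) cover counting error only, and the genotype cannot be told apart from any other difference between the libraries.

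The receptor gene *Nr3c1* (chr18:39410545-39519421, minus strand) was somewhat lower in the library labelled KO. It had 230.3 CPM (interval 220.4 to 240.5) in myonuclei of the WT-labelled library and 182 (174 to 191) in that labelled KO. Its log2 ratio was -0.34 (-0.43 to -0.25), within 1.5-fold, where the median over 6976 genes with at least 200 UMIs was -0.14. Ratios relative to that median would be 0.14 higher throughout. Of the receptor's chaperones and co-chaperones, 8 of 11 had enough UMIs. Lower by at least 1.5-fold were 2 of them, *Stip1* (-0.72) and *Hspa8* (-0.66), where 9.86% of all genes were. *Stub1*, a ubiquitin ligase that works with chaperones, had the highest ratio (0.50) without reaching the fold. The mineralocorticoid receptor gene *Nr3c2*, which encodes the closest relative of the glucocorticoid receptor, stood at 667 and 334 CPM, with a log2 ratio between -1.06 and -0.93 (95% interval). *H6pd*, the other of the 2 steroid supply genes with enough UMIs, differed by 0.23. The 14 coregulator genes, all with enough UMIs, had a median log2 ratio of -0.20. Among them *Ppargc1a*, which encodes the coactivator PGC-1α, was the only gene at least 1.5-fold higher (1.69).

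The receptor gene and the induced genes did not move as a block. Of the 10 members, 5 were at least 1.5-fold higher in myonuclei of the library labelled KO, where 6.77% of the 6976 genes were. A further 1 was at least 1.5-fold lower, where 9.86% of genes were, and 4 lay between. The median log2 ratio of the members was 0.53. The members were chosen with earlier results of these data known, so these shares are no neutral comparison with all genes. Higher were *Fkbp5*, *Sesn1*, *Ddit4*, *Mt1* and *Mt2*. Lower was *Tsc22d3*. *Nr3c1*, *Zbtb16*, *Klf9* and *Errfi1* were neither.

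*Fkbp5* had 575 CPM in the WT-labelled library and 1037 in that labelled KO, a log2 ratio of 0.85 (0.80 to 0.90). *Tsc22d3*, like *Fkbp5* a standard readout of receptor activity, went the other way, with 343 CPM in the WT-labelled library and 132 in that labelled KO. Its log2 ratio of -1.38 (-1.47 to -1.28) ranked 6894th of 6976 genes from the top. These 2 genes thus differed in opposite directions, and so did the share of myonuclei in which each was found. After each nucleus was thinned to 1000 UMIs, *Fkbp5* was found in 35.8% of 2381 and 48.9% of 3012 myonuclei, and *Tsc22d3* in 23.7% and 10.2%. *Zbtb16*, the member with the most UMIs, differed little, with 2027 and 2344 CPM (log2 ratio 0.21, 0.18 to 0.24). *Klf9* had 372 and 335 (-0.15, -0.22 to -0.08).

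Both inhibitors of mTORC1 were higher in the library labelled KO. *Sesn1* had 551 CPM in the WT-labelled library and 1086 in that labelled KO (log2 ratio 0.98, 0.93 to 1.03), and was found in 37.1% and 59.4% of thinned myonuclei. *Ddit4*, a short gene with few UMIs, had 47.0 and 86.9 CPM (0.89, 0.72 to 1.06). RNA of the genes for proteins that DDIT4, sestrin and ERRFI1 act on was read as well, which does not measure that action. Of 9 genes with enough UMIs among the targets of DDIT4, sestrin and ERRFI1, 8 lay within 1.5-fold, including *Mtor* (0.11) and *Tsc2* (-0.33), and the receptor gene *Egfr* was higher (0.78). Their lowest ratios were those of *Erbb3* (-0.46), *Rheb* (-0.43) and *Tsc2*, and the next highest those of *Tsc1* (0.29) and *Mtor*. *Errfi1* differed little, with 71.8 and 83.4 CPM (0.22, 0.06 to 0.37).

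The metallothioneins had the largest ratios among the members. *Mt1* had 31.0 CPM in the WT-labelled library and 80.3 in that labelled KO (log2 ratio 1.37, 1.17 to 1.58). *Mt2* had 15.3 and 54.5 (1.83, 1.56 to 2.12), the 62nd highest ratio of the 6976 genes. Their UMIs sat in few nuclei: the 1% of myonuclei with the most *Mt2* held 46.7% of its UMIs in the WT-labelled library and 21.1% in that labelled KO, and for *Mt1* these shares were 24.8% and 16.0%. No nucleus had more than 9 UMIs of either gene. Without those nuclei the log2 ratio of *Mt2* was 2.40, which follows from the larger share removed in the WT-labelled library. *Mtf1*, which encodes the zinc sensor that binds metal response elements, was lower (-0.62), and the zinc transporter genes *Slc39a10* (0.05) and *Slc39a14* (0.17), the other 2 metal genes with enough UMIs, lay within 1.5-fold. Of 10 early stress genes listed, only 4 had enough UMIs. Of these, *Atf3* (1.80), *Junb* (0.74) and *Fos* (0.70) were at least 1.5-fold higher in the library labelled KO, where 6.77% of all genes were. *Jun* (0.32) was not. *Atf3* had 17.1 CPM in the WT-labelled library and 59.6 in that labelled KO. The part of tissue handling or stress in the *Mt1*, *Mt2* and *Ddit4* values was not tested.

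**Figure D1:**
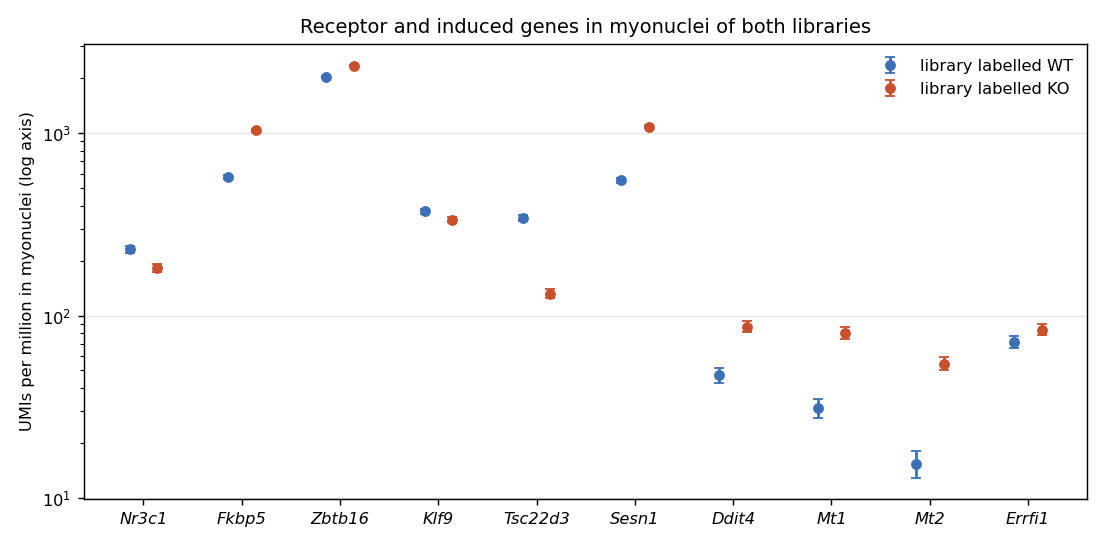
CPM of the 10 genes in myonuclei (log axis), with 95% Poisson intervals for counting error, for the WT-labelled library (2408 nuclei, blue) and the library labelled KO (3087 nuclei, red). *Fkbp5*, *Sesn1*, *Ddit4*, *Mt1* and *Mt2* sit higher in red, *Tsc22d3* sits lower (343 against 132), and the points of *Zbtb16*, *Klf9*, *Nr3c1* and *Errfi1* lie within 1.5-fold of each other.

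Other genes known to be induced by the receptor also differed in both directions. Of 18 with enough UMIs, 3 were higher (6.77% of all genes were), 4 lower (9.86% of all genes) and 11 neither, with a median log2 ratio of 0.04. Higher were the cell cycle inhibitor gene *Cdkn1a* (1.35), *Angptl4* (1.35), which encodes an inhibitor of lipoprotein lipase, and *Nfkbia* (1.20), which encodes the NF-κB inhibitor IκBα. The lowest were *Arrdc2* (-1.26), *Sgk1* (-1.20), which encodes a kinase of ion transport, and *Glul* (-0.80), the glutamine synthetase gene, and the ubiquitin ligase gene *Fbxo32* was also lower (-0.63). Relatives of the members with enough UMIs numbered 6, of which *Tsc22d4* alone passed 1.5-fold (0.65). *Klf10* (0.18) and *Klf13* (-0.05) followed it, and *Tsc22d2* (-0.52), *Tsc22d1* (-0.51) and *Ddit4l* (-0.43) had the lowest ratios.

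Myonuclei were next grouped by their main adult myosin heavy chain gene. The groups held 701 and 612 type IIb (*Myh4*) nuclei in the libraries labelled WT and KO, 1156 and 1176 type IIx (*Myh1*), 236 and 482 type IIa (*Myh2*), and 313 and 798 with no main *Myh* gene. In each library, 3 of the 10 members were at least 1.5-fold lower in type IIa than in type IIb nuclei, *Nr3c1*, *Ddit4* and *Mt2*, where 11.2% of 4340 genes were, and 0 were higher. *Nr3c1* had 301 CPM in type IIb, 189 in type IIx and 150.1 in type IIa nuclei of the WT-labelled library. In the library labelled KO it had 216, 156 and 121. The order IIb, IIx, IIa was thus the same in each library, and only the intervals of IIx and IIa overlapped in WT (176 to 202 and 126 to 178). *Ddit4* followed that order as well, with 68.8, 29.8 and 13.5 CPM in the WT-labelled library and 91.3, 74.6 and 51.5 in that labelled KO, where the intervals of IIb and IIx overlapped.

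Among the 3 fast fibre types, the glycolytic type IIb nuclei also had the highest metallothionein levels in the WT-labelled library. *Mt1* had 48.0 CPM in type IIb, 18.0 in type IIx and 9.03 in type IIa nuclei there, and 65.9, 68.4 and 47.9 in the library labelled KO. *Mt2* had 25.2, 6.01 and 3.39 in the WT-labelled library, the last from 3 UMIs, and 60.1, 36.6 and 22.1 in that labelled KO. *Fkbp5* was lowest in type IIa in each library, with 610 CPM in type IIb, 548 in IIx and 316 in IIa nuclei of the WT-labelled library and 989, 810 and 686 in that labelled KO. *Sesn1* had no such order: 586, 485 and 494 in the WT-labelled library and 843, 1057 and 1209 in that labelled KO. With fibre groups defined more strictly, by at least 5 *Myh* UMIs of which at least 80% came from the main gene, *Ddit4* alone stayed at least 1.5-fold lower in type IIa in each library.

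The ratio between libraries differed among the fibre groups for several members, in values that were not tested. The log2 ratio of *Ddit4* was 0.41 (0.09 to 0.73) in type IIb, 1.32 (1.02 to 1.63) in IIx and 1.93 (1.05 to 2.93) in IIa nuclei. That of *Mt1* was 0.46 (0.07 to 0.84), 1.92 (1.56 to 2.30) and 2.41 (1.36 to 3.67), and that of *Sesn1* 0.52 (0.42 to 0.63), 1.12 (1.05 to 1.20) and 1.29 (1.14 to 1.44). For all 3 genes the interval in type IIb did not overlap those in IIx and IIa. *Klf9* was lower in the library labelled KO in type IIb nuclei (-0.57, -0.73 to -0.40), while its interval in type IIa included 0 (-0.03 to 0.39). *Tsc22d3* was lower in all 4 groups, with log2 ratios of -1.14 in IIb, -1.62 in IIx, -1.12 in IIa and -1.41 in nuclei with no main *Myh* gene. *Fkbp5* was higher in all 4, with 0.70, 0.56, 1.12 and 1.07.

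Nuclei with no main *Myh* gene had the highest point values of these 4 groups for the same 8 members in each library. *Klf9* and *Tsc22d3* were the exceptions. Intervals overlapped those of another group for *Nr3c1* and *Sesn1* in the library labelled KO. In the WT-labelled library they did so for *Nr3c1*, *Zbtb16*, *Mt1*, *Mt2* and *Errfi1*. *Fkbp5* reached 1797 CPM (1741 to 1855) in the library labelled KO, against 989 in type IIb, and 853 in the WT-labelled library. These nuclei had a median of 2452 and 2232 UMIs, below the 3004 and 2394 of type IIb nuclei, and were 8.52% of kept nuclei in the WT-labelled library and 20.2% in that labelled KO. With the 4 groups weighted equally, the same 5 members were higher and the same 1 lower.

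**Figure D2:**
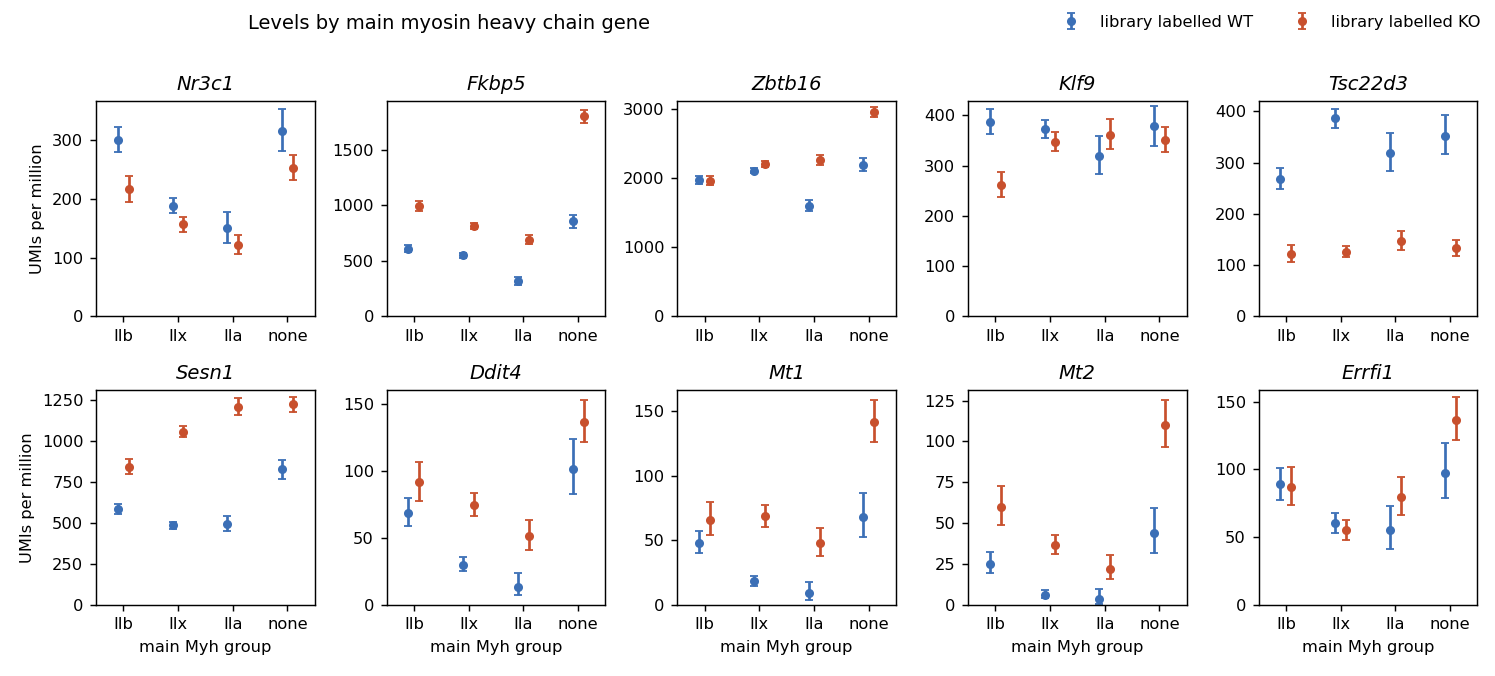
CPM of each gene (linear axes from 0) by the main myosin heavy chain gene of the nucleus, in the WT-labelled library (blue) and the library labelled KO (red), with 95% Poisson intervals. *Nr3c1* and *Ddit4* step down from type IIb to IIx to IIa in each library, *Tsc22d3* is lower in red in all 4 groups, and the group with no main *Myh* gene is highest for *Fkbp5* (853 and 1797).

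Whether members were found in the same myonuclei was asked after thinning to 1000 UMIs. Of 45 pairs, 7 were found together more often than independent detection would give, with intervals above 1 in each library, and 0 had an interval below 1 in either. The share of all gene pairs with such intervals was not measured, so this count is not read as a trait of the members. The neighbours *Mt1* and *Mt2* were found together in 9 nuclei of the WT-labelled library, 7.52 times the expected number (3.44 to 14.3), and in 37 of that labelled KO, 3.12 times (2.20 to 4.31). *Mt1* and *Ddit4* followed with 2.97 times (1.42 to 5.46) and 1.60 times (1.05 to 2.33). The other 5 pairs held *Fkbp5*, with *Nr3c1* (1.24 and 1.21 times), *Zbtb16* (1.11 and 1.06), *Mt1* (1.45 and 1.28), *Errfi1* (1.31 and 1.24) and *Ddit4* (1.43 and 1.24). *Fkbp5* and *Tsc22d3*, which differed between the libraries in opposite directions, were found together 1.21 times (1.06 to 1.37) and 1.11 times (0.95 to 1.29) the expected number. Fibre groups that share high levels of both genes of a pair enter these values.

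**Figure D3:**
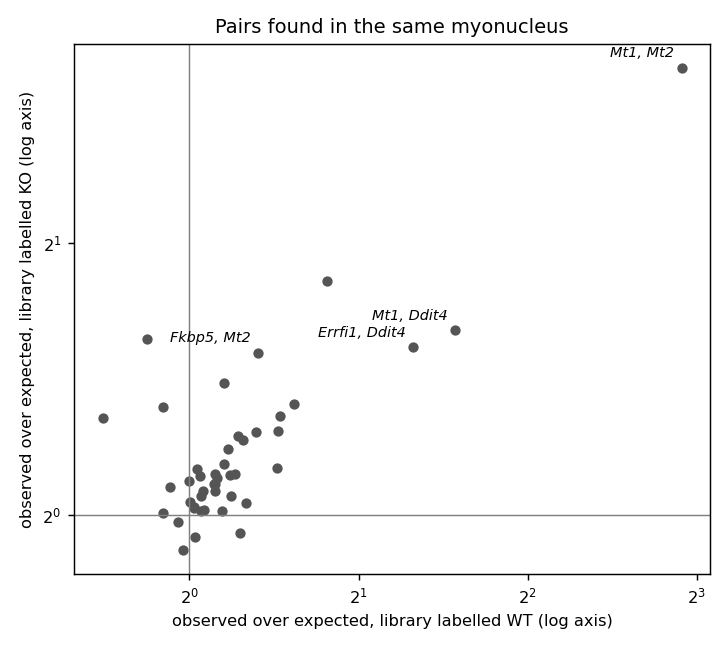
Observed over expected number of myonuclei with a UMI of both genes of a pair, after thinning each nucleus to 1000 UMIs, in the WT-labelled library (x, log axis) and the library labelled KO (y, log axis). Each point is 1 of 44 pairs, *Mt2* with *Errfi1* being left out since 0 nuclei of the WT-labelled library held both, and most lie near 1 while *Mt1* with *Mt2* stands at 7.52 and 3.12.

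Levels outside the muscle fibre were set against those in myonuclei. Classes were named from marker genes as X-like, 6 of them with at least 30 nuclei in each library. Of 60 pairs of a member and a class, 9 were at least 1.5-fold higher than in myonuclei in each library and 15 at least 1.5-fold lower, where between 19.9% and 26.5% of genes were higher and between 21.4% and 31.0% lower, depending on the class. *Errfi1* was the most unequal. In pericyte- or smooth muscle-like nuclei (158 and 116) it had 1268 CPM in the WT-labelled library and 968 in that labelled KO, against 71.8 and 83.4 in myonuclei. It had 845 and 430 in FAP-like (fibro-adipogenic progenitor) nuclei (485 and 332), 354 and 221 in MuSC-like (muscle stem cell) nuclei (189 and 126), and 17.8 and 18.3 in endothelial-like nuclei (223 and 132). The levels that free RNA from myonuclei would give, taken from each class's share of myonuclear markers, were at most 8.58 CPM for *Errfi1* in these classes.

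The receptor gene was higher in endothelial-like, macrophage-like and tenocyte-like nuclei than in myonuclei. *Nr3c1* had 421 and 385 CPM in endothelial-like, 391 and 306 in macrophage-like (99 and 56) and 348 and 430.4 in tenocyte-like nuclei (59 and 56). The intervals of these 3 classes overlapped in each library. Without doublet removal only the endothelial-like difference stayed at or above 1.5-fold in each library. *Sesn1* was the reverse, at least 1.5-fold lower than in myonuclei in 5 of the 6 classes, with 190.4 to 306 CPM in the WT-labelled library and 252 to 351 in that labelled KO. MuSC-like nuclei were the exception, with 628 and 720.1, against 551 and 1086 in myonuclei.

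By class, the counts were read against the share of genes called by the same rule. In FAP-like nuclei *Fkbp5* and *Errfi1* were higher (2 of 10, against 25.9% of 7733 genes) and *Sesn1* lower (1 of 10, against 25.9%). In endothelial-like nuclei *Nr3c1* was higher (23.0% of genes) and *Errfi1* and *Sesn1* lower (31.0%). In MuSC-like nuclei *Errfi1* was higher (26.5%) and *Zbtb16* lower (21.4%). In pericyte- or smooth muscle-like nuclei *Errfi1* was higher (20.1%) and *Tsc22d3* and *Sesn1* lower (28.9%). In macrophage-like nuclei *Nr3c1* was higher (23.6%) and *Zbtb16*, *Klf9* and *Sesn1* lower (29.2%). In tenocyte-like nuclei *Nr3c1* and *Tsc22d3* were higher (19.9%) and *Sesn1* lower (25.9%). A further 6 of the pairs passed the fold on few UMIs, and no difference is read from them. In pericyte- or smooth muscle-like nuclei *Mt1* had 0 and 12 UMIs, *Mt2* 1 and 2 and *Ddit4* 11 and 10. In macrophage-like nuclei *Mt1* had 3 and 0 UMIs and *Ddit4* 2 and 5, and in tenocyte-like nuclei *Mt2* had 5 and 15. These genes reached 200 UMIs only through myonuclei, and for all but *Mt1* in pericyte- or smooth muscle-like nuclei the interval in at least 1 library included 0. Apart from those 6 pairs, the shares of members were in most cases below the shares of all genes. With 10 members per class, no difference is read from these shares.

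**Figure D4:**
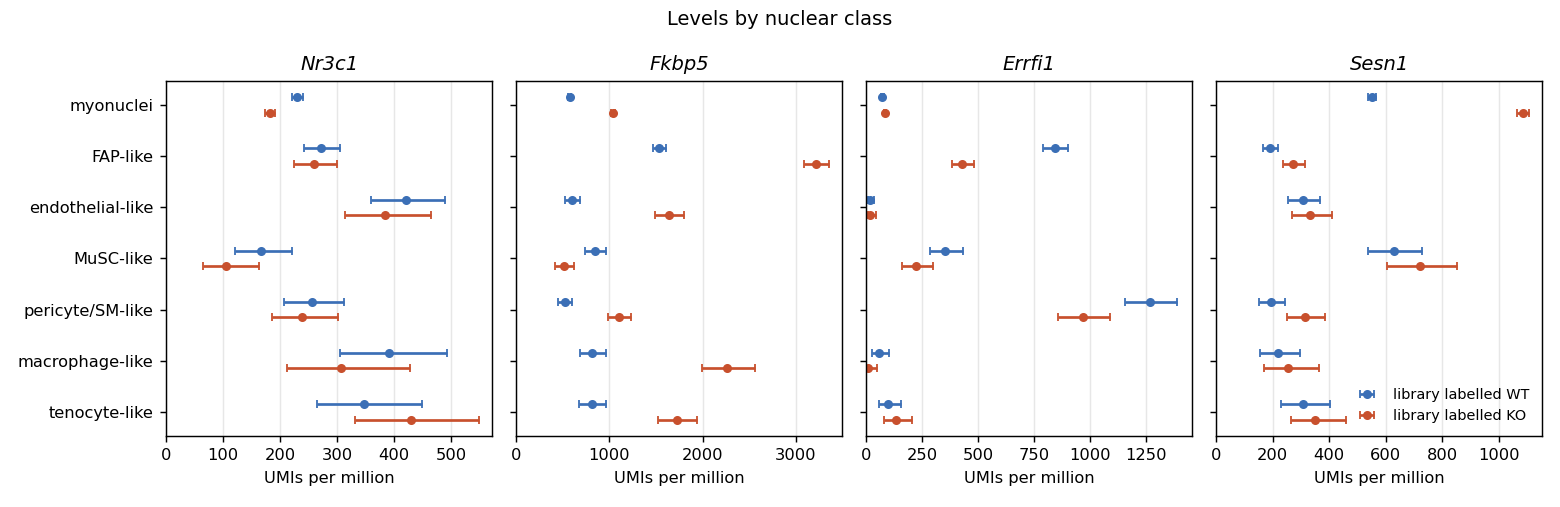
CPM (linear axes from 0) of *Nr3c1*, *Fkbp5*, *Errfi1* and *Sesn1* in myonuclei and 6 non-muscle classes, for the WT-labelled library (blue) and the library labelled KO (red), with 95% Poisson intervals. *Errfi1* is highest in pericyte- or smooth muscle-like nuclei (1268 and 968) and FAP-like nuclei, *Sesn1* is lowest outside myonuclei and MuSC-like nuclei, and *Fkbp5* is higher in red in every class drawn except the MuSC-like.

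*Fkbp5* was higher in the library labelled KO outside the muscle fibres as well, in 5 of the 6 classes. The log2 ratio of *Fkbp5* was 1.07 (0.98 to 1.16) in FAP-like, 1.45 (1.22 to 1.69) in endothelial-like, 1.08 (0.81 to 1.34) in pericyte- or smooth muscle-like, 1.47 (1.17 to 1.78) in macrophage-like and 1.09 (0.78 to 1.40) in tenocyte-like nuclei, each with a point value above the 0.85 of myonuclei. FAP-like nuclei had the highest levels of the 6 classes, with 1537 and 3220.0 CPM, and free myonuclear RNA would give 13.7 and 39.7 of them. MuSC-like nuclei were the exception, with 845 CPM in the WT-labelled library and 510 in that labelled KO (-0.73, -1.09 to -0.38). *Zbtb16*, within 1.5-fold in myonuclei (0.21) and in MuSC-like nuclei (0.30, 0.06 to 0.55), was at least 1.5-fold higher in the other 5 classes, up to 1.56 (1.18 to 1.95) in macrophage-like nuclei, where it had 497 and 1468 CPM. The median log2 ratio over all genes with at least 200 UMIs was between -0.06 and 0.06 in these 6 classes.

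*Tsc22d3* did not share this pattern. Its log2 ratio was 0.55 (0.13 to 0.97) in endothelial-like nuclei, with 245 and 359 CPM, and -0.60 (-1.11 to -0.11) in tenocyte-like and -0.32 (-0.64 to -0.01) in FAP-like nuclei. In the other 3 classes the interval included 0, and no class had a ratio as low as the -1.38 of myonuclei. *Klf9* was higher in the library labelled KO in endothelial-like nuclei (0.75, 0.37 to 1.13) and lower in FAP-like (-0.28) and pericyte- or smooth muscle-like nuclei (-0.41). *Errfi1* was lower in FAP-like (-0.98, -1.17 to -0.79), MuSC-like (-0.68, -1.24 to -0.14) and pericyte- or smooth muscle-like nuclei (-0.39, -0.61 to -0.17). Over all kept nuclei its ratio was -0.56, against 0.22 in myonuclei. *Mt1* had 12 UMIs (30.6 CPM) in endothelial-like nuclei of the WT-labelled library, found in 1.79% of them, and 0 in that labelled KO, where 3 UMIs would be 11.0 CPM. The 95% interval of its log2 ratio reached up to -0.95. In pericyte- or smooth muscle-like nuclei *Mt1* had 0 and 12 UMIs (42.1 CPM in the library labelled KO), with an interval from 1.84 upward.

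**Figure D5:**
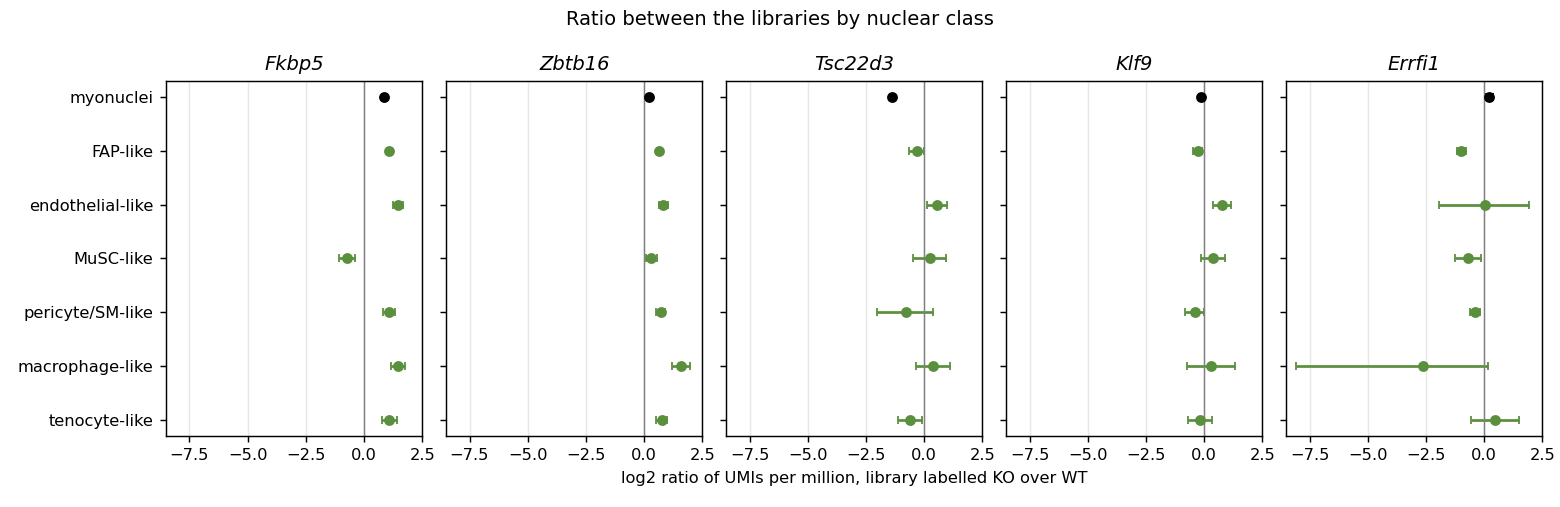
Log2 ratio of CPM (library labelled KO over the WT-labelled library) of *Fkbp5*, *Zbtb16*, *Tsc22d3*, *Klf9* and *Errfi1* in myonuclei (black) and 6 non-muscle classes (green), with exact 95% intervals for counting error. *Fkbp5* lies right of 0 in every class drawn except the MuSC-like (-0.73), *Zbtb16* lies right of 0 in all, and *Tsc22d3* is lowest in myonuclei (-1.38).

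Over 21 points, each a fibre group or class of 1 library with at least 30 nuclei, the genes whose levels followed each member most closely were listed from 8642 genes by Pearson's r of log2(CPM + 10). These are descriptions, since the points share 2 libraries. *Mt1* had *Mt2* first (r = 0.77), and *Mt1* was second for *Mt2*, after *1810058I24Rik* (0.79). *Sesn1* was followed by *Ros1* (0.92), *Mapt* (0.91) and *Sim1* (0.91), and *Errfi1* by *Adamts12* (0.91), *Sema5a* (0.90) and *Adra1a* (0.89). *Nr3c1* was closest to *Nr1h2* (0.86), which encodes the nuclear receptor LXRβ, then *Tmem30a* (0.86) and *Foxj2* (0.85), and *Klf9* to *Tmlhe* (0.86), *Myo6* (0.82) and the growth hormone receptor gene *Ghr* (0.81). *Ddit4* was closest to *Anxa7* (0.81), *Tsc22d3* to *Pcmtd1* (0.80), *Zbtb16* to *Hddc2* (0.77) and *Fkbp5* to *Acap2* (0.75), and none of these 4 had another member among its 3 closest genes.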

How the data were processed

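snRNA-seq was performed on sorted nuclei. The authors deposited whole-number UMI counts per gene and barcode, made with Cell Ranger 7.0.0 against mm10, and Seurat 5.0.3 is also named in the submitters' processing notes. The study's methods give a 3′ kit and the labels a multiome kit, and whether intronic reads were counted is not given in the sources used here.

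The members and gene lists were chosen with earlier results of these data known. Nuclei with 200 to 5000 genes and at most 5% mitochondrial UMIs were kept, and the barcodes with the highest Scrublet scores (scanpy 1.11.5) were removed as doublets, at 0.8% per 1000 barcodes, since Scrublet's own threshold marked only 46 and 4. Nuclei were clustered in Seurat 5.3.0 after the libraries were aligned by its integration step (RPCA anchors). In all, 1326 genes were left out of the clustering. These were the members and genes beyond a set fold between the libraries in the myonuclei of a first clustering. Clusters were named from marker genes. Counts were summed per class and library and given as CPM. The 95% intervals are exact, conditional on the summed UMIs for ratios, Poisson for levels and Clopper-Pearson for shares (scipy 1.17.1), and cover counting error only. A member was called at 1.5-fold among genes with at least 200 UMIs. The scripts were tested on simulated data. All 10 members were named; from each list the up to 3 highest and 3 lowest ratios were named, and for likeness the 3 closest genes; *Fbxo32* was named after its values were seen. A further gene of the coregulator list is not reported here. Alternatives covered doublets, scaling (edgeR 4.0.16 TMM among them), classes, thinning, filters and left-out nuclei. edgeR was used for scaling alone, since 1 library per genotype allows no test.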

Additional observations from a re-analysis of the deposited data

Results flagged for a closer look

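In 7 cases the ratio between the libraries in a non-muscle class was opposite in sign to that in myonuclei, with both counting intervals off 0. None of these differences was tested, since each genotype has 1 library. *Fkbp5* had a log2 ratio of -0.73 in MuSC-like nuclei and 0.85 in myonuclei, and without doublet removal, a setting chosen after seeing the data, the MuSC-like value was -0.34. In endothelial-like nuclei the log2 ratio of *Tsc22d3* was 0.55, against -1.38 in myonuclei, and that of *Klf9* was 0.75, against -0.15. The *Klf9* value in myonuclei lay near the median of all genes there (-0.14) and was -0.04 under TMM scaling, so its sign depends on the scaling. *Mt1* in endothelial-like nuclei, with 12 and 0 UMIs, had -1.48 when the library labelled KO was set to 3 UMIs, with an exact interval up to -0.95, against 1.37 in myonuclei. The 12 UMIs lay in 1.79% of these nuclei, and the 1% with the most held 75.0% of them. The interval does not cover that clumping. *Errfi1* had 0.22 in myonuclei and -0.98 in FAP-like, -0.68 in MuSC-like and -0.39 in pericyte- or smooth muscle-like nuclei.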

How the results depend on the processing

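The 5 members called higher and the 1 called lower in myonuclei were the same genes under all 12 alternatives run, of which the minimum of 20 UMIs could not change them, since all members had at least 200. The log2 ratio of *Tsc22d3* lay between -1.49 and -1.12, that of *Fkbp5* between 0.82 and 0.98, *Sesn1* between 0.86 and 1.10, *Ddit4* between 0.73 and 1.01, *Mt1* between 1.10 and 1.53 and *Mt2* between 1.42 and 2.40, the last without the 1% of myonuclei with most *Mt2* UMIs. TMM and median-of-ratios scaling moved every log2 ratio by 0.12. *Errfi1*, not called, had -0.56 over all kept nuclei. The count of members lower in type IIa than in type IIb nuclei was 1 instead of 3 under the stricter *Myh* rule, and 4 without the 1% of nuclei with most UMIs of the gene. Counts of member and class pairs were 8 to 11 higher, against 9, and 13 to 15 lower, against 15. No paired analysis was possible because each genotype has 1 library. Depth limits *Mt1*, *Mt2* and *Ddit4* outside myonuclei, where a class often held under 20 UMIs of them.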

Other observations

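Groups too small for the comparisons gave these values. In myonuclei that expressed myotendinous junction markers (25 in the WT-labelled library and 32 in that labelled KO) *Sesn1* had 1517 and 2051 CPM, above the 551 and 1086 of all myonuclei, from 166 and 216 UMIs. *Nr3c1* had 26 UMIs there in the WT-labelled library and 5 in that labelled KO, a log2 ratio of -2.32 with an interval of -4.06 to -0.92. In the 19 type I (*Myh7*) nuclei of the library labelled KO, *Sesn1* had 1646 and *Zbtb16* 3425 CPM. The WT-labelled library had 2 such nuclei. In neuromuscular junction-like myonuclei (15 and 8) *Fkbp5* had 972 and 1424 CPM, from 49 and 31 UMIs.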
